A study of Homo sapiens with 42 samples.

Results

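CEM and DND41 are established human T-cell acute lymphoblastic leukaemia cell lines. The response of CEM to L-asparaginase was compared with that of DND41, gene by gene, in 12 of the 42 libraries of a series of 7 leukaemia lines. L-asparaginase is an enzyme drug that removes asparagine, and less efficiently glutamine, from the medium. The 4 groups were untreated CEM, CEM after 4 h with the enzyme at 1 IU/ml, untreated DND41 and DND41 after the same exposure, with n = 3 libraries in each group from independent experiments. All groups grew in RPMI-1640 with serum and added glutamine, and no group carried a further treatment. Each line stands for 1 leukaemia, so a difference between them is a difference between these 2 lines, and 1 dose and 1 time were measured. The quantity of interest is the response of CEM (treated over untreated, log2) minus the response of DND41, called the difference between responses here.

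Cells that run short of an amino acid accumulate uncharged transfer RNA, which switches on the kinase GCN2 (gene EIF2AK4). GCN2 phosphorylates the initiation factor eIF2, which slows general translation and favours translation of the transcription factor ATF4. ATF4 and its partners of the C/EBP family then raise genes for amino acid synthesis and uptake, such as ASNS, which encodes asparagine synthetase, together with the stress regulators DDIT3, TRIB3, CHAC1 and SESN2. This programme is the integrated stress response, and the ability to raise ASNS is a known determinant of sensitivity to the drug in lymphoid cells.

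Deposited counts summed to 22.68 to 31.6 M (mega counts) per library in untreated CEM and 50.81 to 71.52 M in treated CEM, so every treated CEM library was deeper than every untreated one. In DND41 the totals were 37.94 to 51.18 M untreated and 33.47 to 50.44 M treated. The 10 T-lineage markers had a median of 125 CPM (counts per mega counts of the library) in untreated CEM and 187 CPM in untreated DND41. Among them CD2 and CD5 were at 50.5 and 107 CPM in untreated CEM but 3.07 and 0.815 CPM in untreated DND41. The summed 10 B-lineage markers were at 93.8 to 100 CPM in untreated and 50.5 to 70.9 CPM in treated CEM, against 1070 to 1320 CPM and 949 to 1050 CPM in DND41. Of these markers PAX5, CD22 and MS4A1 stood below 1 CPM in all groups, whereas CD79A reached a mean of 916 CPM and IGLL1 263 CPM in untreated DND41. EBF1 had a mean of 26.3 CPM in untreated DND41 and 0.0104 CPM in untreated CEM. Untreated CEM held CD79A at 22.6, VPREB1 at 24.4 and IGLL1 at 34.9 CPM, and VPREB1 was at 0.101 CPM in untreated DND41. The summed stromal markers reached 35.4 to 66 CPM in untreated and 69.5 to 80.8 CPM in treated DND41, mostly from PDGFRB with means of 46.9 and 74.5 CPM, while COL1A2, DCN, LUM and FAP were at 0. In bulk libraries fewer cells of a type and less RNA per cell cannot be told apart, and the part of these markers in the differences between responses was not tested. The letters A, B and C name the libraries of a group by their column headers. The untreated and the treated DND41 library A stood apart from the other DND41 libraries, with 5.63% and 5.77% of their counts in small noncoding RNAs against 7.73 to 11% in the others. Treated CEM library C stood apart in its line, with 14.3% against 9.84 to 10.4%, and the part of this share in the results was not tested beyond the values without each library.

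Of 17369 genes tested with edgeR's quasi-likelihood test, 804 (4.63%) differed in response between the lines at a Benjamini-Hochberg adjusted p under 0.05. The response was higher in CEM for 438 genes (2.52%) and lower for 366 (2.11%), and 200 and 160 of them differed at least 2-fold. In CEM alone 4003 genes (23%) responded, 2145 upward (12.3%) and 1858 downward (10.7%). In DND41 alone 5600 genes (32.2%) responded, 2815 upward (16.2%) and 2785 downward (16%). The balance of directions depended on the scaling. With relative log expression factors 349 interaction calls were higher and 428 lower, and with upper quartile factors 509 and 337. The CEM response then had 1878 rises and 2107 falls with the first and 1936 and 2112 with the second, and the DND41 response 2438 rises and 3303 falls with upper quartile factors. Without CEM untreated A the interaction split was 232 higher and 403 lower. With thinned counts the CEM response had 1730 rises and 2008 falls. The median difference over all genes tested was 0.05 on the log2 scale. With the replicate letter as a block the interaction count was 1696, with 928 higher and 768 lower, and with every library thinned to the depth of the shallowest one it was 732, with 317 higher and 415 lower (43.3% higher against 54.5% without thinning). DESeq2 called 1389 genes and the model over all 42 libraries 377. The count moved with single libraries: it was 341 without CEM untreated B, 517 without CEM untreated C, 376, 274 and 316 without CEM L-asparaginase A, B or C, 1544 without DND41 untreated A, 409 without DND41 L-asparaginase B, 272 without DND41 L-asparaginase C, and 2191 without both DND41 A libraries. The CEM count was 2605, 2511 and 2534 without CEM untreated B, CEM L-asparaginase B or CEM L-asparaginase C, and 6015 without both DND41 A libraries.

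Far more genes were called in the same direction in both lines than in opposite directions. The responses of the lines share no library, but the interaction test uses the libraries of both. Of the genes called higher in CEM, 1264 were also called higher in DND41, which is 58.9% of the CEM genes and 44.9% of the DND41 genes. For genes called lower, 1046 were shared, 56.3% of those of CEM and 37.6% of those of DND41. Another 35 genes were called higher in CEM and lower in DND41, and 30 lower in CEM and higher in DND41, and each of these also passed the interaction test. Over the 11444 genes expressed in both lines (a mean of at least 1 CPM in a group of each), the log2 responses had a Pearson correlation of 0.679 across genes, which are not independent replicates. Among those genes 729 (6.37%) passed the interaction test, 398 higher and 331 lower in CEM. The shared rises became 799 without CEM L-asparaginase B, 822 in the model over all 42 libraries and 1899 without both DND41 A libraries. The shared falls became 654 without CEM L-asparaginase C and 658 in the model over all 42 libraries.

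**Figure D1:**
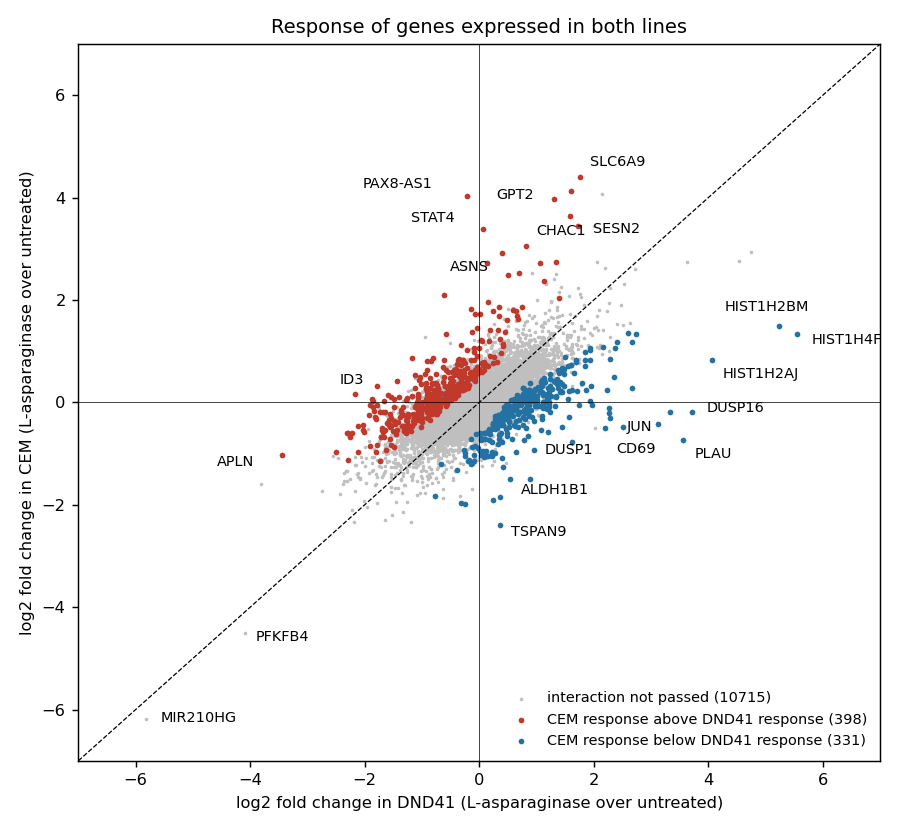
Each point is 1 of the 11444 genes expressed in both lines, with its log2 response to 4 h of L-asparaginase in DND41 on the x axis and in CEM on the y axis, both from the model over 12 libraries. Red points (398) have a CEM response above that of DND41 by the interaction test and blue points (331) one below it, grey points did not pass, and the dashed line marks equal responses.

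Several amino acid stress genes rose further in CEM. Of 22 tested regulators of the integrated stress response, 8 had a higher and 1 a lower response in CEM by the interaction test, against 2.52% and 2.11% of all genes. In CEM 15 of the 22 rose and 2 fell, and in DND41 11 rose and 3 fell. For all genes the shares were 12.3% up and 10.7% down in CEM, and 16.2% and 16% in DND41. The median log2 response of the list was 1.11 in CEM and 0.38 in DND41, and its median difference was 0.69 against 0.05 over all genes tested. The 9 calls became 3 in the model over all 42 libraries.

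ASNS, which makes asparagine from aspartate, was at 15.5, 17.8 and 15.7 CPM in the untreated CEM libraries A, B and C, the order used for all values here, and at 75.5, 93.2 and 106 CPM in the treated ones. In DND41 it was at 1.498, 2.05 and 1.82 CPM untreated and 1.35, 3.23 and 3.09 CPM treated. The CEM groups did not overlap, whereas treated DND41 A lay below all untreated DND41 libraries, and every DND41 library lay below every CEM library. The log2 response of ASNS was 2.49 ± 0.22 in CEM (edgeR adjusted p = 4.82e-06) and 0.50 ± 0.26 in DND41 (edgeR adjusted p = 0.153), each ± the standard error (SE) of the model. The difference between responses was 1.99 ± 0.33 (edgeR adjusted p = 0.00351), and the call held in all 22 alternative settings.

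The promoter of ASNS holds a known amino acid response element that ATF4 and C/EBP factors bind. RefSeq promoters, from 250 bases before to 50 bases after each gene start, were searched on both strands for the letters TGATGNAA, the C/EBP-ATF response element. The element was in 1003 of 27305 promoters (3.67%) and in 3 of the 10 matched genes of the 12 stress genes listed for this comparison, ASNS, ATF3 and CHAC1. The 88 bases around each match are shown, read along the gene's strand with the match in capitals, because ASNS and CHAC1 differed in response between the lines and ATF3 did not pass that test.

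ASNS, chr7:97872429-97872516, GRCh38.p14, minus strand: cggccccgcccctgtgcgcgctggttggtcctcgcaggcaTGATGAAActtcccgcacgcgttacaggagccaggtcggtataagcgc
ATF3, chr1:212565176-212565263, GRCh38.p14, plus strand: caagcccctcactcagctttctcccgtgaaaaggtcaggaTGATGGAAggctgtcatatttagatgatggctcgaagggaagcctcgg
CHAC1, chr15:40953222-40953309, GRCh38.p14, plus strand: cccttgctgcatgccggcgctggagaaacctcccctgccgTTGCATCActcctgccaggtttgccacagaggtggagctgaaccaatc

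The match lay at position -68 from the gene start in ASNS, -191 in ATF3 and -209 in CHAC1, where it reads as the reverse complement. Among the 10 genes named for large positive differences 1 of 7 matched promoters held the element (CHAC1), and among the 10 named for large negative differences 0 of 5 did. A match of letters is a description and not a site of binding.

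CHAC1, a glutathione-degrading enzyme induced through ATF4, was at 3.52, 7.92 and 7.37 CPM in untreated and 55.3, 50.9 and 51.6 CPM in treated CEM. It was at 6.24, 14.0 and 14.0 CPM in untreated and 15.8, 24.6 and 19.96 CPM in treated DND41. Neither line's groups overlapped, and library A was the lowest of the untreated ones in both lines. CHAC1 rose in both lines, by 3.06 ± 0.30 in CEM (edgeR adjusted p = 1.25e-05) and 0.81 ± 0.28 in DND41 (edgeR adjusted p = 0.0357), a difference of 2.24 ± 0.40 (edgeR adjusted p = 0.00597). DDIT3, the transcription factor CHOP, was at 6.55, 8.36 and 8.51 CPM in untreated and 46.7, 56.4 and 51.3 CPM in treated CEM. DND41 held DDIT3 at 17.0, 19.2 and 22.6 CPM untreated and 34.9, 45.7 and 41.8 CPM treated. All treated libraries exceeded all untreated ones within a line, and untreated CEM lay below untreated DND41. The rise of DDIT3 was 2.72 ± 0.15 in CEM and 1.05 ± 0.14 in DND41, a difference of 1.66 ± 0.21 (edgeR adjusted p = 0.000575), and it passed in all 22 settings.

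SESN2, a stress-induced leucine sensor that restrains mTORC1, was at 6.02, 7.92 and 8.75 CPM in untreated and 94.0, 79.8 and 74.8 CPM in treated CEM. DND41 held SESN2 at 47.2, 25.6 and 33.7 CPM untreated and 113, 126 and 113 CPM treated. Untreated levels in CEM were the lowest, and the treated CEM libraries remained below the treated DND41 libraries although they had risen further. SESN2 rose by 3.45 ± 0.20 in CEM (edgeR adjusted p = 9.75e-08) and 1.73 ± 0.18 in DND41 (edgeR adjusted p = 8.16e-06), with a difference of 1.72 ± 0.26 (edgeR adjusted p = 0.0022). CEBPB, a C/EBP partner of ATF4, was at 14.1, 17.7 and 16.8 CPM in untreated and 56.8, 59.98 and 54.4 CPM in treated CEM. DND41 held CEBPB at 24.0, 34.7 and 29.6 CPM untreated and 37.3, 49.5 and 45.8 CPM treated. It rose in both lines, without overlap, and the difference was 1.23 ± 0.20 (edgeR adjusted p = 0.00346). TRIB3, a pseudokinase that feeds back on ATF4, was at 54.7, 58.2 and 72.4 CPM in untreated and 227, 262 and 273 CPM in treated CEM. DND41 held TRIB3 at 202, 169 and 163 CPM untreated and 451, 468 and 473 CPM treated. It rose in both lines, with a difference of 0.66 ± 0.18 (edgeR adjusted p = 0.0479) that was lost without any 1 of 10 libraries (edgeR adjusted p up to 0.184, without CEM L-asparaginase B). The remaining members with a higher response in CEM were named after their values were seen. CEBPG, a partner of other C/EBP factors, differed by 0.72 ± 0.18 (edgeR adjusted p = 0.0345), and ATF5, a relative of ATF4, by 1.04 ± 0.26 (edgeR adjusted p = 0.0327). The mean of CEBPG went from 68.6 to 151 CPM in CEM and from 113 to 151 CPM in DND41. For ATF5 the mean was higher in treated CEM (18.8 to 29.4 CPM) and lower in treated DND41 (223 to 169 CPM). EIF2AK1 differed by 1.07 ± 0.20 (edgeR adjusted p = 0.00668). This haem-regulated eIF2 kinase was not called in CEM, with means of 81.4 and 68.2 CPM in untreated and treated CEM, and fell in DND41, from 108 to 42.9 CPM. In the model over all 42 libraries the differences of CHAC1, SESN2 and CEBPB had edgeR adjusted p of 0.0502, 0.171 and 0.153.

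The member with the lower response in CEM was EIF2AK4, which encodes GCN2 itself. It was at 70.9, 67.9 and 73.9 CPM in untreated and 44.9, 42.2 and 38.0 CPM in treated CEM, and at 34.6, 28.9 and 31.3 CPM in untreated and 35.4, 37.3 and 37.3 CPM in treated DND41. The groups overlapped in neither line: the treated libraries were all lower in CEM and all higher in DND41. EIF2AK4 fell in CEM by 0.77 ± 0.10 on the log2 scale (edgeR adjusted p = 0.000137), and its DND41 response of 0.22 ± 0.10 did not pass (edgeR adjusted p = 0.128). The difference for EIF2AK4 was -0.98 ± 0.15 (edgeR adjusted p = 0.0022) and passed in all 22 settings.

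Other stress genes showed no called difference. ATF4 was at 379, 462 and 477 CPM in untreated and 586, 584 and 575 CPM in treated CEM. DND41 held ATF4 at 921, 855 and 754 CPM untreated and 871, 848 and 792 CPM treated. Its transcript was higher in all treated CEM libraries than in the untreated ones and overlapped between the DND41 groups, and the difference was 0.42 ± 0.17 (edgeR adjusted p = 0.2). ATF3, a stress-induced transcription factor, rose in both lines, from means of 25.5 to 54.0 CPM in CEM and from 13.2 to 40.8 CPM in DND41, with a difference of -0.54 ± 0.46 (edgeR adjusted p = 0.588). INHBE, an activin subunit gene, rose from a mean of 0.0922 to 1.19 CPM in CEM and from 0.606 to 1.79 CPM in DND41, and its difference of 2.04 ± 0.72 (edgeR adjusted p = 0.131) rests on few counts and passed with no filter on low counts (edgeR adjusted p = 0.03). DDIT4, an inhibitor of mTORC1, had a difference of 0.64 ± 0.35 (edgeR adjusted p = 0.348), which passed at 0.87 without DND41 untreated A (edgeR adjusted p = 0.0252) and with no filter on low counts (edgeR adjusted p = 0.0358). PHGDH, the first enzyme of serine synthesis, rose in both lines with a difference of 0.25 ± 0.18 (edgeR adjusted p = 0.518). MYC had a difference of -0.28 ± 0.17 (edgeR adjusted p = 0.409). PSAT1, the next enzyme of serine synthesis, rose in CEM from 104, 117 and 118 CPM to 472, 566 and 555 CPM, while no DND41 library exceeded 0.252 CPM, too few counts to give a difference between responses.

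**Figure D2:**
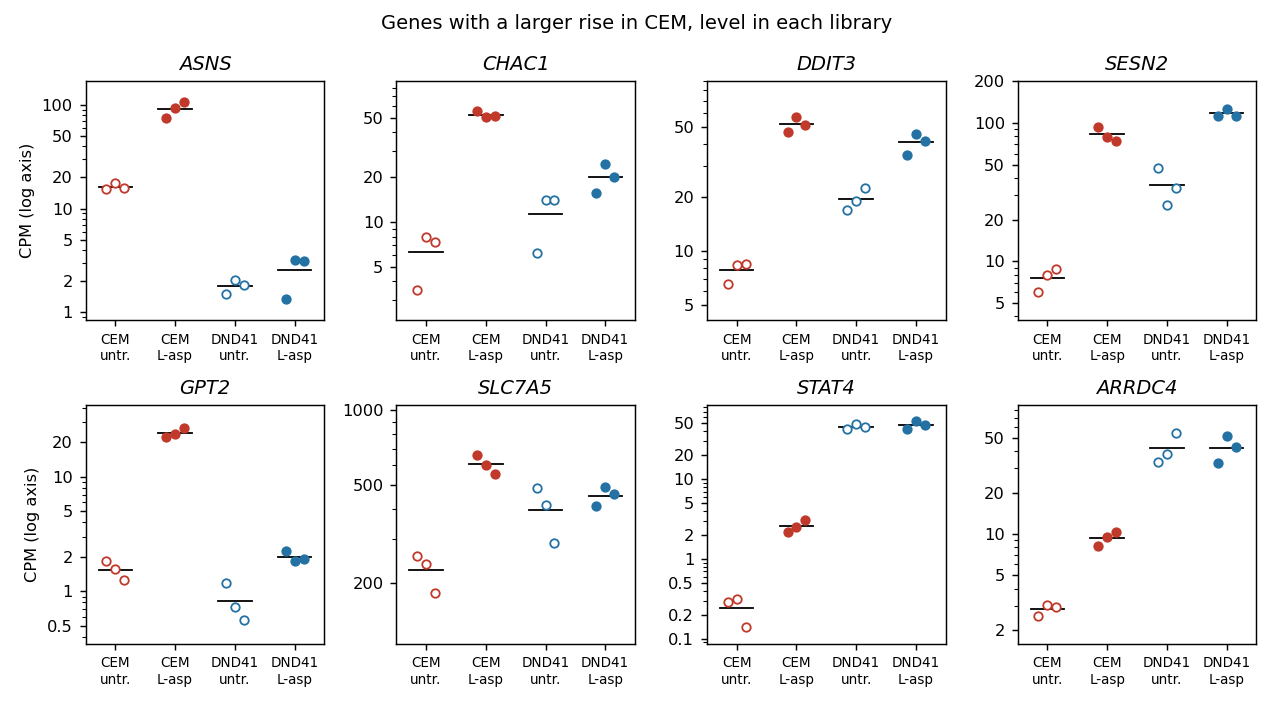
Level of 8 genes with a higher response in CEM, in CPM on a log axis, in each of the 12 libraries: open circles are untreated and filled circles treated libraries, red CEM and blue DND41, in the order A, B, C, and the black line is the group mean. ASNS rises from a mean of 16.3 to 91.6 CPM in CEM and stays between 1.35 and 3.23 CPM in DND41.

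Several amino acid transporters and synthesis enzymes also responded more in CEM. Of 20 tested transporters 6 had a higher and 0 a lower response in CEM, with a median difference of 0.46, while 12 rose and 3 fell in CEM and 8 rose and 2 fell in DND41. Of 23 tested enzymes that make amino acids or carry one-carbon units, 3 had a higher and 0 a lower response in CEM, with a median difference of 0.20. Both counts stand beside 2.52% higher and 2.11% lower over all genes tested, and both medians beside 0.05. The counts within a line stand beside 12.3% up and 10.7% down in CEM, and 16.2% and 16% in DND41. The 6 transporter calls became 1 without CEM L-asparaginase B, 2 without CEM L-asparaginase C or in the model over all 42 libraries and 3 without CEM untreated A, CEM untreated B, CEM L-asparaginase A or DND41 L-asparaginase C. The 3 enzyme calls became 5 without DND41 L-asparaginase A or with upper quartile factors or with a minimum count of 50 or with DESeq2 or with the replicate letter as a block and 6 without both DND41 A libraries.

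GPT2, a mitochondrial enzyme that makes alanine from pyruvate, was at 1.84, 1.57 and 1.25 CPM in untreated and 22.3, 23.9 and 26.7 CPM in treated CEM. In DND41 it was at 1.17, 0.731 and 0.557 CPM untreated and 2.27, 1.83 and 1.92 CPM treated. The groups did not overlap in either line, and the treated CEM libraries stood far above all others. GPT2 rose by 3.97 ± 0.23 in CEM (edgeR adjusted p = 9.75e-08) and 1.31 ± 0.24 in DND41 (edgeR adjusted p = 0.00063), a difference of 2.67 ± 0.33 (edgeR adjusted p = 0.000575) that passed in all 22 settings. MTHFD2, a mitochondrial folate enzyme, was at 157, 186 and 195 CPM in untreated and 603, 660.4 and 684 CPM in treated CEM. DND41 held MTHFD2 at 444, 475 and 366 CPM untreated and 508, 868 and 766 CPM treated. It rose in both lines, with a difference of 1.12 ± 0.24 (edgeR adjusted p = 0.0166), lost without CEM L-asparaginase C (edgeR adjusted p = 0.0513), CEM untreated A (edgeR adjusted p = 0.0542) or CEM L-asparaginase B (edgeR adjusted p = 0.066).

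SLC7A5, the large neutral amino acid transporter LAT1, was at 257, 238 and 181 CPM in untreated and 659, 601 and 553 CPM in treated CEM. DND41 held SLC7A5 at 484, 412 and 291 CPM untreated and 409, 489 and 457 CPM treated. It rose in CEM without overlap and overlapped between the DND41 groups, with a difference of 1.23 ± 0.24 (edgeR adjusted p = 0.00986), which had an edgeR adjusted p of 0.104 in the model over all 42 libraries. SLC7A11, the cystine transporter xCT, was at 24.3, 27.9 and 14.7 CPM in untreated and 220.3, 312 and 301 CPM in treated CEM. DND41 held SLC7A11 at 172, 95.5 and 62.8 CPM untreated and 198, 417 and 371 CPM treated. Treated exceeded untreated libraries in both lines, and the untreated DND41 libraries were far apart, with A the highest. The difference for SLC7A11 was 2.06 ± 0.46 (edgeR adjusted p = 0.0206), lost without CEM untreated C (edgeR adjusted p = 0.0541), CEM L-asparaginase C (edgeR adjusted p = 0.0542) or CEM L-asparaginase B (edgeR adjusted p = 0.0687). SLC6A9, the glycine transporter GlyT1, was at 0.45, 0.376 and 0.726 CPM in untreated and 9.57, 10.0 and 13.3 CPM in treated CEM. DND41 held SLC6A9 at 6.26, 2.33 and 1.33 CPM untreated and 8.02, 12.4 and 12.8 CPM treated. The treated levels of both lines overlapped, and the untreated level was lower in all CEM libraries than in all DND41 libraries. SLC6A9 differed by 2.65 ± 0.63 (edgeR adjusted p = 0.027), lost without any 1 of 7 libraries (edgeR adjusted p up to 0.0925, without CEM untreated B), with limma voom and with thinned counts. Its untreated CEM mean of 0.518 CPM rests on low counts, and in CEM it reached 1 CPM only in the treated group. SLC1A5, a glutamine transporter, rose from a mean of 103 to 331 CPM in CEM and from 203 to 320.0 CPM in DND41. The difference for SLC1A5 was 1.03 ± 0.21 (edgeR adjusted p = 0.0113), lost without CEM L-asparaginase B (edgeR adjusted p = 0.0579). The other 2 transporters with a higher response in CEM, named after their values were seen, were SLC43A1 (0.70 ± 0.17, edgeR adjusted p = 0.0296) and SLC1A4 (0.63 ± 0.15, edgeR adjusted p = 0.0304).

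These lists of stress regulators, transporters and enzymes held 17 genes with a higher response in CEM, and in 15 of them the untreated mean was lower in CEM than in DND41, with all untreated CEM libraries below all untreated DND41 libraries in 14. Over the 438 genes with a higher response in CEM, 272 (62.1%) had a lower untreated mean in CEM and 200 (45.7%) had all untreated CEM libraries below, and over all genes tested the shares were 49.8% and 24%. ASNS and GPT2 were the 2 exceptions, with higher untreated means in CEM. In 6 of the 17 the treated libraries of both lines overlapped (CEBPG, MTHFD2, SLC1A4, SLC1A5, SLC6A9 and SLC7A11). For SLC1A5 the DND41 mean was 1.97 times the CEM mean in untreated and 0.966 times in treated libraries, and for SLC7A11 4.94 and 1.18 times. ASNS went the other way, with a DND41 mean that was 0.11 times the CEM mean untreated and 0.0279 times treated. The untreated level is itself part of the difference between responses, so these ratios are a description with no test.

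Further genes with large positive differences lie outside these lists. STAT4, a transcription factor of interleukin-12 signalling in T cells, was at 0.287, 0.313 and 0.138 CPM in untreated and 2.18, 2.54 and 3.04 CPM in treated CEM, and at 42.7, 49.4 and 44.9 CPM and 42.3, 53.7 and 47.8 CPM in DND41. Its treated CEM libraries lay above the untreated ones yet far below every DND41 library, and the difference was 3.31 ± 0.30 (edgeR adjusted p = 7.03e-05). PAX8-AS1, a noncoding transcript antisense to PAX8, was at 0.205, 0.157 and 0.0692 CPM in untreated and 2.62, 2.21 and 2.26 CPM in treated CEM. DND41 held PAX8-AS1 at 21.8, 19.9 and 22.7 CPM untreated and 21.1, 15.5 and 19.14 CPM treated. The difference was 4.25 ± 0.33 (edgeR adjusted p = 1.82e-05), the largest positive one among the named genes with an interaction call. Nothing in the sources used here says that counting used the strand, so reads of PAX8 and PAX8-AS1 cannot be told apart. For STAT4 and PAX8-AS1 every DND41 library lay above every CEM library. CAMSAP2, which binds microtubule minus ends, was at 0.205, 0.188 and 0.346 CPM in untreated and 1.84, 1.42 and 1.68 CPM in treated CEM. DND41 held CAMSAP2 at 3.87, 2.76 and 2.51 CPM untreated and 3.43, 3.08 and 3.53 CPM treated. It rose in CEM and overlapped between the DND41 groups, with a difference of 2.59 ± 0.39 (edgeR adjusted p = 0.0022). ARRDC4, an alpha-arrestin that responds to glucose, rose in CEM from 2.54, 3.04 and 2.94 to 8.23, 9.54 and 10.3 CPM, overlapped in DND41 at 33.7, 38.3 and 54.6 and 32.8, 51.5 and 43.0 CPM, and differed by 1.71 ± 0.28 (edgeR adjusted p = 0.00297). These 4 calls held in all 22 settings. In untreated CEM the means of STAT4, PAX8-AS1 and CAMSAP2 were 0.246, 0.143 and 0.246 CPM, so the sizes of their differences rest on low counts. In CEM STAT4, PAX8-AS1 and CAMSAP2 reached the 1 CPM level of expressed genes only in the treated group.

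NR1D1, APLN and ID3 had positive differences and fell in DND41, whereas ADARB2 and ROCK1P1 rose in CEM. NR1D1, the clock repressor REV-ERB alpha, was at 1.43, 1.06 and 0.865 CPM in untreated and 1.15, 1.45 and 1.13 CPM in treated CEM. DND41 held NR1D1 at 2.82, 3.77 and 3.73 CPM untreated and 0.497, 0.97 and 0.82 CPM treated. All treated DND41 libraries lay below all untreated ones while the CEM groups overlapped. NR1D1 differed by 2.33 ± 0.39 (edgeR adjusted p = 0.00359) and passed in all 22 settings. APLN, the peptide hormone apelin, fell in DND41 from 26.3, 44.9 and 74.3 to 8.07, 2.91 and 2.30 CPM and stood at 2.91, 3.48 and 4.88 and 1.84, 1.85 and 1.84 CPM in CEM. Its difference of 2.41 ± 0.58 (edgeR adjusted p = 0.0282) was lost without any 1 of 8 libraries (edgeR adjusted p up to 0.0768, without CEM untreated B). ID3, an inhibitor of E proteins, fell in DND41 from 24.7, 69.1 and 45.3 to 11.6, 15.1 and 11.3 CPM and overlapped in CEM at 69.9, 89.8 and 48.8 and 78.3, 75.5 and 65.8 CPM, a difference of 1.94 ± 0.39 (edgeR adjusted p = 0.0117). ADARB2, a relative of RNA-editing enzymes, rose in CEM from 0.205, 0.532 and 0.311 to 1.24, 1.95 and 1.42 CPM, overlapped in DND41 at 1.65, 3.24 and 3.60 and 1.68, 2.15 and 1.73 CPM, and differed by 2.71 ± 0.49 (edgeR adjusted p = 0.00629). ROCK1P1, a pseudogene of ROCK1 whose reads may be shared with its parent gene, rose in both lines, by 4.13 ± 0.44 in CEM (edgeR adjusted p = 2.54e-05) and 1.61 ± 0.42 in DND41 (edgeR adjusted p = 0.00842). ROCK1P1 differed by 2.52 ± 0.62 (edgeR adjusted p = 0.0314), lost without any 1 of 9 libraries (edgeR adjusted p up to 0.0792, without CEM L-asparaginase B).

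JUN, the phosphatase gene DUSP16 and the activation antigen CD69 rose in DND41 and were not called in CEM. JUN, a component of the AP-1 transcription factor, was at 17.3, 22.4 and 48.6 CPM in untreated and 256, 339 and 291 CPM in treated DND41. In CEM it was at 31.9, 40.05 and 57.2 CPM untreated and 33.4, 41.8 and 37.5 CPM treated. The DND41 groups were far apart and the CEM groups overlapped. The log2 response of JUN was -0.20 ± 0.29 in CEM (edgeR adjusted p = 0.684) and 3.33 ± 0.31 in DND41 (edgeR adjusted p = 3.13e-06), a difference of -3.52 ± 0.41 (edgeR adjusted p = 0.000522) that passed in all 22 settings. DUSP16, a phosphatase that acts on JUN kinases, was at 35.5, 25.8 and 30.3 CPM in untreated and 31.1, 23.3 and 26.3 CPM in treated CEM. DND41 held DUSP16 at 0.175, 0.592 and 0.386 CPM untreated and 2.51, 6.28 and 6.94 CPM treated. It rose in DND41 from a level far below that of CEM, where the groups overlapped, with a difference of -3.89 ± 0.48 (edgeR adjusted p = 0.000575). KLF6, a zinc finger transcription factor, rose in DND41 from 108, 114 and 187 to 363, 518 and 489.5 CPM and overlapped in CEM at 22.2, 24.6 and 25.9 and 19.6, 26.8 and 24.0 CPM, a difference of -1.79 ± 0.27 (edgeR adjusted p = 0.00225). CD69, an early activation antigen of lymphocytes, was at 46.7, 59.0 and 68.6 CPM in untreated and 34.8, 46.4 and 42.4 CPM in treated CEM. DND41 held CD69 at 12.6, 41.6 and 54.6 CPM untreated and 87.4, 235 and 178 CPM treated. All treated DND41 libraries were above the untreated ones and all treated CEM libraries below the untreated ones of that line, with library A the lowest in each group of DND41, and the difference was -2.69 ± 0.55 (edgeR adjusted p = 0.0133).

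PLAU, the urokinase protease, was at 2.05, 2.57 and 2.04 CPM in untreated and 1.05, 1.55 and 1.41 CPM in treated CEM. DND41 held PLAU at 0.225, 0.494 and 0.3 CPM untreated and 1.89, 4.58 and 5.93 CPM treated. It rose in DND41, and its CEM response of -0.73 ± 0.35 did not pass although the CEM groups did not overlap (edgeR adjusted p = 0.154). The difference for PLAU was -4.29 ± 0.53 (edgeR adjusted p = 0.00061), and the calls for DUSP16, KLF6, CD69 and PLAU held in all 22 settings. DMBT1, a secreted scavenger receptor protein, rose in DND41 from 0.175, 0.237 and 0.171 to 0.662, 2.26 and 2.30 CPM and overlapped in CEM at 24.8, 14.8 and 12.4 and 15.05, 12.2 and 11.6 CPM, a difference of -3.54 ± 0.57 (edgeR adjusted p = 0.00302). For DMBT1 and DUSP16 every CEM library lay above every DND41 library. TSPAN9, a tetraspanin, fell in CEM from 4.14, 8.70 and 9.34 to 1.09, 1.41 and 1.72 CPM and overlapped in DND41 at 0.449, 1.56 and 1.29 and 0.875, 1.75 and 1.67 CPM, a difference of -2.76 ± 0.56 (edgeR adjusted p = 0.0121). The noncoding LINC00659 differed by -2.99 ± 0.77 (edgeR adjusted p = 0.0365), lost without any 1 of 8 libraries (edgeR adjusted p up to 0.101, without DND41 L-asparaginase C). In untreated DND41 the means of DUSP16, PLAU, DMBT1 and LINC00659 were 0.384, 0.339, 0.194 and 0.315 CPM. In DND41 these genes reached 1 CPM only in the treated group, so the sizes of their differences rest on low counts.

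The immediate early genes as a list differed in both directions. Of 28 tested members 2 had a higher and 3 a lower response in CEM, with a median difference of -0.16, against 2.52% higher, 2.11% lower and a median of 0.05 over all genes tested. In CEM 1 of them rose and 6 fell, and in DND41 4 rose and 5 fell. The shares of all genes were 12.3% up and 10.7% down in CEM, and 16.2% and 16% in DND41. The DND41 counts lie near those shares. The 3 lower ones were JUN, KLF6 and DUSP1, and the 2 higher ones were FOSB, an AP-1 component, and IER5, named after its values were seen (0.73 ± 0.19, edgeR adjusted p = 0.0454). FOSB fell in DND41 from 0.275, 0.869 and 0.815 to 0.142, 0 and 0.0946 CPM, and its difference of 3.22 ± 0.82 (edgeR adjusted p = 0.0351) was lost without any 1 of 10 libraries (edgeR adjusted p up to 0.0993, without CEM L-asparaginase B). The 5 calls became 3 without CEM untreated B, CEM untreated C, CEM L-asparaginase A, CEM L-asparaginase B, CEM L-asparaginase C, DND41 L-asparaginase B or DND41 L-asparaginase C or in the model over all 42 libraries, 8 without DND41 untreated A, 10 without both DND41 A libraries, 13 with the replicate letter as a block and 14 with no filter on low counts.

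**Figure D3:**
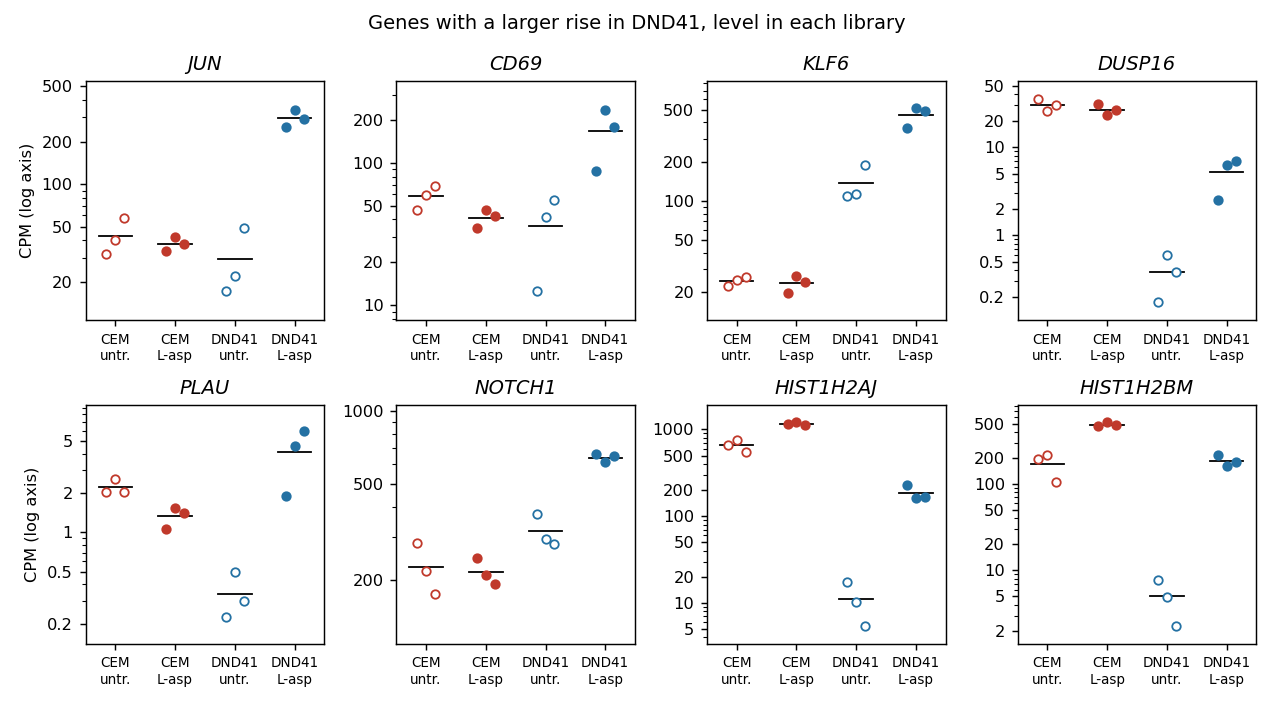
Level of 8 genes with a lower response in CEM, in CPM on a log axis, in each of the 12 libraries: open circles are untreated and filled circles treated libraries, red CEM and blue DND41, in the order A, B, C, and the black line is the group mean. JUN rises from a mean of 29.4 to 295 CPM in DND41 and overlaps between the CEM groups.

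T-lineage genes differed in both directions. Of 33 tested genes of the T-cell receptor and T-cell surface, 3 had a higher and 3 a lower response in CEM, with a median difference of 0.06. Over all genes tested 2.52% were called higher and 2.11% lower, with a median of 0.05, and the same shares stand behind the NOTCH and transcription factor counts given next. CD247, the zeta chain of the T-cell receptor, was at 89.4, 106 and 131 CPM in untreated and 71.7, 67.0 and 70.6 CPM in treated CEM. DND41 held CD247 at 122, 138 and 140.5 CPM untreated and 158, 172 and 176 CPM treated. It fell in CEM and rose in DND41, without overlap in either line, with a difference of -0.98 ± 0.18 (edgeR adjusted p = 0.00606), which had an edgeR adjusted p of 0.118 in the model over all 42 libraries. CD3G, another receptor chain, fell in DND41 from 525, 411 and 436 to 279.6, 271 and 255 CPM and overlapped in CEM at 204, 217 and 231 and 204, 212 and 196 CPM. Its difference of 0.68 ± 0.16 (edgeR adjusted p = 0.0246) was lost without any 1 of 7 libraries (edgeR adjusted p up to 0.122, without CEM L-asparaginase B). RAG1, the recombinase of receptor gene assembly, fell in both lines, from means of 281 to 156 CPM in CEM and from 1512 to 404 CPM in DND41. Its difference of 1.06 ± 0.27 (edgeR adjusted p = 0.0367) was lost without any 1 of 10 libraries (edgeR adjusted p up to 0.11, without CEM L-asparaginase B). Besides CD69, the remaining calls were CD28 (-0.71 ± 0.18, edgeR adjusted p = 0.0374) and CCR7 (0.77 ± 0.21, edgeR adjusted p = 0.0486), named after their values were seen. The 6 calls became 1 in the model over all 42 libraries, 2 without CEM untreated B, CEM L-asparaginase B, CEM L-asparaginase C or DND41 L-asparaginase C, 3 without CEM untreated A, CEM L-asparaginase A or DND41 untreated B, 10 without DND41 untreated A, 11 without both DND41 A libraries or with the replicate letter as a block and 12 with no filter on low counts.

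Of 29 tested genes of the NOTCH pathway, which is often mutated in T-cell leukaemia, 1 had a higher and 1 a lower response in CEM. Calls in either direction made up 4.63% of all genes and 6.37% of those expressed in both lines, and the NOTCH count lies near these shares. NOTCH1 was at 285, 217 and 175 CPM in untreated and 246, 209.8 and 192 CPM in treated CEM. DND41 held NOTCH1 at 374, 297 and 282 CPM untreated and 661, 613 and 648 CPM treated. It rose in DND41 without overlap, the CEM groups overlapped, and the difference was -1.07 ± 0.23 (edgeR adjusted p = 0.0165), lost without CEM L-asparaginase C (edgeR adjusted p = 0.0562). MAML3, a coactivator of NOTCH, fell in DND41 from 7.51, 7.31 and 7.16 to 4.73, 3.75 and 4.51 CPM and overlapped in CEM. Its difference of 0.96 ± 0.22 (edgeR adjusted p = 0.0234) was lost without any 1 of 8 libraries (edgeR adjusted p up to 0.105, without CEM L-asparaginase B). Among 25 tested transcription factors of T-cell leukaemia 2 had a higher and 1 a lower response in CEM. GATA3 rose in DND41 from 12.2, 7.58 and 7.82 to 24.1, 19.0 and 20.7 CPM and overlapped in CEM at 21.9, 14.4 and 13.6 and 17.1, 17.8 and 14.8 CPM. Its difference of -1.21 ± 0.28 (edgeR adjusted p = 0.0256) was lost without any 1 of 5 libraries (edgeR adjusted p up to 0.0774, without CEM L-asparaginase C). TOX, a nuclear factor of T-cell development, fell in DND41 from 75.2, 74.2 and 70.1 to 43.9, 42.3 and 35.9 CPM and overlapped in CEM at 97.7, 95.2 and 89.9 and 90.3, 94.1 and 84.5 CPM. Its difference of 0.77 ± 0.14 (edgeR adjusted p = 0.00668) was lost without CEM L-asparaginase B (edgeR adjusted p = 0.0507). LYL1 rose in CEM from a mean of 21.4 to 35.9 CPM and was below 1 CPM in all DND41 libraries, with a difference of 1.49 ± 0.39 (edgeR adjusted p = 0.0418) that was lost without any 1 of 10 libraries (edgeR adjusted p up to 0.143, without DND41 L-asparaginase B). Across the settings the 2 NOTCH calls became 0 without CEM L-asparaginase C or in the model over all 42 libraries, 1 without CEM untreated A, CEM untreated B, CEM L-asparaginase A, CEM L-asparaginase B, DND41 L-asparaginase B or DND41 L-asparaginase C, 5 without DND41 L-asparaginase A or with no filter on low counts, 6 without both DND41 A libraries or with DESeq2 and 7 with the replicate letter as a block. The 3 transcription factor calls became 0 in the model over all 42 libraries, 1 without CEM L-asparaginase A, CEM L-asparaginase B, CEM L-asparaginase C or DND41 L-asparaginase C, 5 without DND41 L-asparaginase A or with no filter on low counts or with DESeq2 or with the replicate letter as a block and 7 without both DND41 A libraries.

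Most histone genes rose in both lines, and some rose further in DND41. Of 19 tested members of the shorter histone list 13 rose and 0 fell in CEM, 14 rose and 0 fell in DND41, and 1 had a lower and 0 a higher response in CEM by the interaction test, with a median difference of -0.43. Clustered histone genes took 4.77% ± 0.845 (SD, n = 3) of the counts in untreated and 8.03% ± 0.217 in treated CEM, and 4.68% ± 0.819 in untreated and 11.6% ± 0.985 in treated DND41. Of 73 tested genes with a symbol starting with HIST, a list drawn up after the values were seen, 43 rose and 2 fell in CEM, and 59 rose and 0 fell in DND41. By the interaction test 17 of them had a lower and 0 a higher response in CEM, against 2.11% lower and 2.52% higher over all genes tested, and the median log2 response was 0.83 in CEM and 1.44 in DND41. Behind both histone lists, 12.3% of all genes rose and 10.7% fell in CEM, and 16.2% rose and 16% fell in DND41. The histone genes are near-identical copies, so the counting may have split or dropped their reads.

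HIST1H2BM, which encodes histone H2B, was at 195, 217 and 106 CPM in untreated and 466, 517 and 480.3 CPM in treated CEM. In DND41 it was at 7.81, 4.94 and 2.27 CPM untreated and 216, 162 and 182 CPM treated. Both lines rose without overlap, and the untreated DND41 libraries were below all others. The difference for HIST1H2BM was -3.73 ± 0.44 (edgeR adjusted p = 0.000522). HIST1H2AJ, which encodes histone H2A, was at 654, 761 and 551 CPM in untreated and 1162, 1205 and 1139.5 CPM in treated CEM. DND41 held HIST1H2AJ at 17.6, 10.2 and 5.42 CPM untreated and 228, 163 and 165 CPM treated. The difference was -3.23 ± 0.40 (edgeR adjusted p = 0.000575). All treated exceeded all untreated libraries within each line, and the calls for HIST1H2BM and HIST1H2AJ held in all 22 settings. HIST1H2BG, more alike in level between untreated lines, was at 928, 1138 and 723 CPM in untreated and 1620.5, 1734 and 1673 CPM in treated CEM. DND41 held HIST1H2BG at 766, 1174 and 718 CPM untreated and 3022, 5459.7 and 4533 CPM treated. It rose in both lines, with a difference of -1.44 ± 0.32 (edgeR adjusted p = 0.0204) that was lost without any 1 of 5 libraries (edgeR adjusted p up to 0.0648, without CEM untreated B). HIST1H4F differed by -4.21 ± 0.82 (edgeR adjusted p = 0.00945) at levels up to 12.2 CPM, lost without CEM untreated B (edgeR adjusted p = 0.126) and with limma voom. Its untreated means were only 0.458 CPM in CEM and 0.166 CPM in DND41. The 17 calls became 5 without CEM untreated B, 6 without CEM L-asparaginase C, 7 without CEM L-asparaginase A, CEM L-asparaginase B, DND41 L-asparaginase B or DND41 L-asparaginase C or in the model over all 42 libraries, 11 without DND41 untreated C, 27 with no filter on low counts and 28 with the replicate letter as a block.

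Genes called in opposite directions were few. ELK3, an ETS transcription factor, was at 7.25, 5.10 and 4.39 CPM in untreated and 13.6, 15.2 and 13.1 CPM in treated CEM. DND41 held ELK3 at 8.04, 10.1 and 9.45 CPM untreated and 6.39, 5.63 and 6.50 CPM treated. The treated libraries were all higher in CEM and all lower in DND41, and the difference was 1.91 ± 0.25 (edgeR adjusted p = 0.000911). CTBP2, a transcriptional corepressor, was at 3.64, 2.35 and 2.77 CPM in untreated and 4.997, 4.43 and 5.92 CPM in treated CEM. DND41 held CTBP2 at 48.6, 42.9 and 48.7 CPM untreated and 26.2, 23.6 and 24.8 CPM treated. It rose in CEM by 0.82 ± 0.16 and fell in DND41 by 0.91 ± 0.14 on the log2 scale without reaching the DND41 level, a difference of 1.73 ± 0.22 (edgeR adjusted p = 0.000618). KIAA0226L, an autophagy regulator, differed by 2.03 ± 0.32 (edgeR adjusted p = 0.00238), from means of 1.73 to 3.15 CPM in CEM and 4.31 to 1.92 CPM in DND41. LY9, a receptor of the SLAM family on lymphocytes, went from 8.52, 7.42 and 6.64 to 13.0, 12.9 and 13.5 CPM in CEM and from 6.51, 9.005 and 9.58 to 3.03, 5.44 and 5.65 CPM in DND41, a difference of 1.64 ± 0.30 (edgeR adjusted p = 0.00634). SPSB1, a substrate adaptor of ubiquitin ligases, differed by 1.55 ± 0.28 (edgeR adjusted p = 0.00551), and its edgeR adjusted p was 0.0502 in the model over all 42 libraries.

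In the opposite direction ALDH1B1, a mitochondrial aldehyde dehydrogenase, was at 16.6, 18.5 and 24.6 CPM in untreated and 6.43, 6.91 and 7.79 CPM in treated CEM. DND41 held ALDH1B1 at 30.4, 27.9 and 30.5 CPM untreated and 35.4, 41.5 and 52.7 CPM treated. Neither line's groups overlapped, and the response was -1.498 ± 0.17 in CEM (edgeR adjusted p = 3.33e-05) and 0.55 ± 0.16 in DND41 (edgeR adjusted p = 0.0154). ALDH1B1 had a difference of -2.04 ± 0.23 (edgeR adjusted p = 0.00045). DUSP1, a phosphatase of MAP kinases, was at 4.55, 5.45 and 7.19 CPM in untreated and 2.55, 3.15 and 3.28 CPM in treated CEM. DND41 held DUSP1 at 3.22, 5.06 and 7.70 CPM untreated and 8.85, 11.7 and 10.5 CPM treated. It fell in CEM and rose in DND41 without overlap, with a difference of -1.90 ± 0.37 (edgeR adjusted p = 0.00914). PPP2R5B, a regulatory subunit of protein phosphatase 2A, differed by -2.38 ± 0.47 (edgeR adjusted p = 0.00983), and its DND41 groups overlapped. TRIM9, a ubiquitin ligase, fell in CEM from 20.8, 20.7 and 26.0 to 13.9, 13.1 and 16.0 CPM and rose in DND41 from 8.24, 11.3 and 15.5 to 16.2, 22.9 and 24.2 CPM, a difference of -1.502 ± 0.29 (edgeR adjusted p = 0.00814). The transcript CTB-26E19.1 differed by -1.52 ± 0.33 (edgeR adjusted p = 0.0184), lost without CEM L-asparaginase B (edgeR adjusted p = 0.0516), DND41 L-asparaginase B (edgeR adjusted p = 0.0535) or DND41 L-asparaginase C (edgeR adjusted p = 0.0586). Both counts of opposite genes moved with single libraries. The 35 genes became 13 without CEM untreated B, 15 without CEM L-asparaginase A or CEM L-asparaginase B, 17 without DND41 L-asparaginase C or in the model over all 42 libraries, 19 without CEM untreated C or CEM L-asparaginase C, 21 without CEM untreated A or with thinned counts, 73 with the replicate letter as a block and 79 without both DND41 A libraries. The 30 genes became 11 without DND41 L-asparaginase C, 12 without CEM untreated B, 13 without CEM L-asparaginase C or in the model over all 42 libraries, 15 without CEM L-asparaginase A, 16 without CEM L-asparaginase B, 17 without DND41 L-asparaginase B, 18 without CEM untreated C, 51 with DESeq2, 55 without DND41 L-asparaginase A, 64 without DND41 untreated A, 82 with the replicate letter as a block and 87 without both DND41 A libraries.

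**Figure D4:**
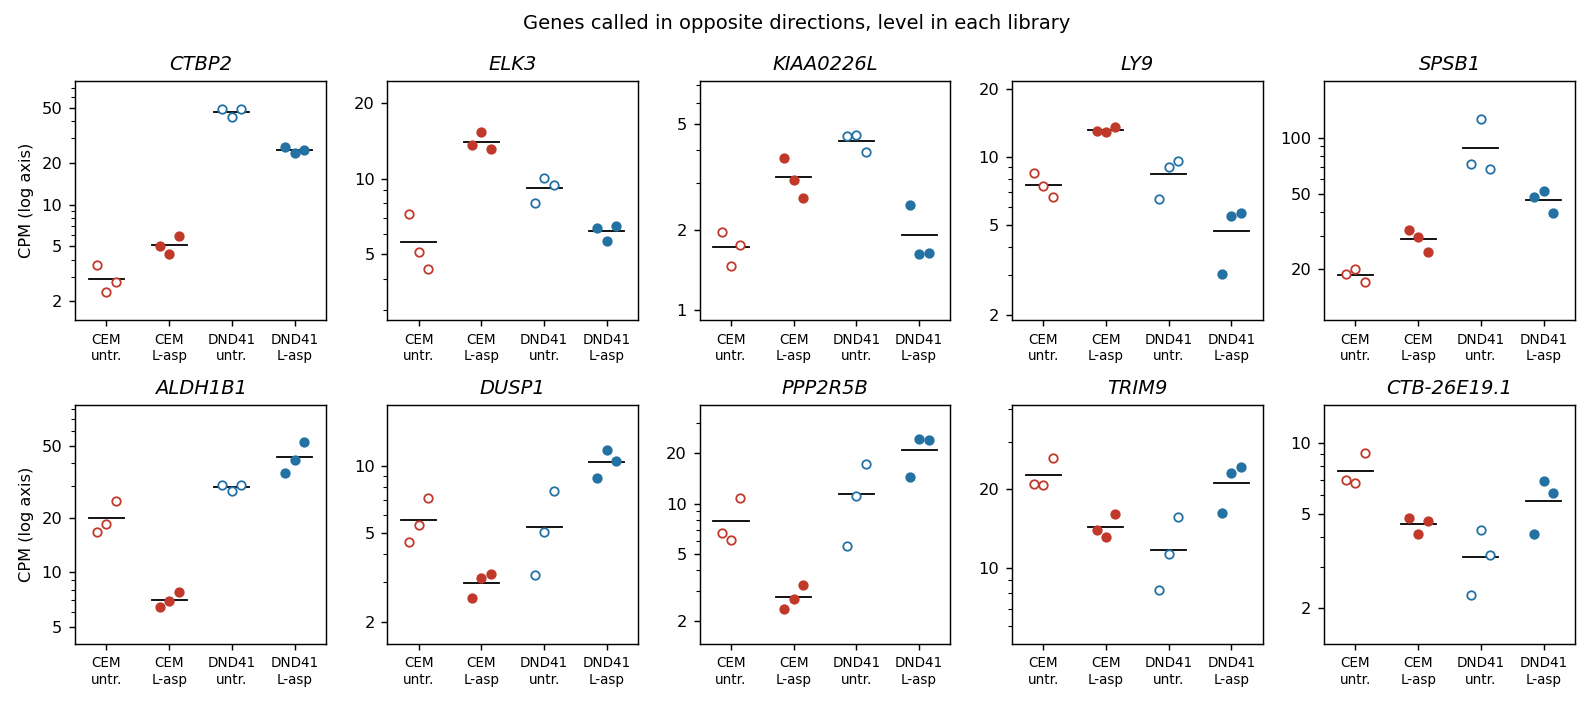
Level of the 10 genes named for opposite responses, in CPM on a log axis, in each of the 12 libraries: open circles are untreated and filled circles treated libraries, red CEM and blue DND41, in the order A, B, C, and the black line is the group mean. The upper row rises in CEM and falls in DND41, as ELK3 does with means of 5.58 to 14.0 and 9.19 to 6.17 CPM, and the lower row does the reverse.

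Glycolysis and cholesterol synthesis genes fell in both lines. Of 25 tested glycolysis genes 17 fell and 0 rose in CEM, 19 fell and 2 rose in DND41, and the median log2 response was -0.78 in CEM and -0.83 in DND41. Over all genes tested 10.7% fell and 12.3% rose in CEM, and 16% fell and 16.2% rose in DND41, the shares that also stand behind the cholesterol, heat shock, synthetase and interferon counts. The medians over all genes tested were 0.00 in CEM and -0.03 in DND41. The interaction test called 2 of the glycolysis genes higher and 1 lower, against 2.52% and 2.11% of all genes. PFKM and PKM, which encode phosphofructokinase and pyruvate kinase, fell in both lines and further in DND41, with differences of 0.96 ± 0.20 (edgeR adjusted p = 0.0153) and 0.88 ± 0.22 (edgeR adjusted p = 0.0325). SLC16A3, a lactate exporter, fell in CEM from 49.2, 62.1 and 113 to 16.6, 18.4 and 21.9 CPM and overlapped in DND41 at 7.01, 18.8 and 18.4 and 10.4, 13.7 and 13.3 CPM, a difference of -1.74 ± 0.45 (edgeR adjusted p = 0.0381). The PFKM call was lost without DND41 L-asparaginase C (edgeR adjusted p = 0.0592) or CEM L-asparaginase A (edgeR adjusted p = 0.06), the PKM call without any 1 of 8 libraries (edgeR adjusted p up to 0.0944, without CEM L-asparaginase C) and the SLC16A3 call without any 1 of 7 libraries (edgeR adjusted p up to 0.105, without CEM untreated C). The 3 glycolysis calls became 0 without CEM L-asparaginase A or DND41 L-asparaginase C or in the model over all 42 libraries and 1 without CEM untreated B, CEM L-asparaginase B, CEM L-asparaginase C or DND41 L-asparaginase B. PFKFB4, which sets the level of a glycolytic activator, fell from 46.8, 56.3 and 114 to 2.43, 3.20 and 3.83 CPM in CEM and from 4.99, 23.4 and 96.6 to 1.47, 2.59 and 3.37 CPM in DND41, with a difference of -0.42 ± 0.98 (edgeR adjusted p = 0.894). MIR210HG, the host transcript of a hypoxia-induced microRNA, fell from 5.94, 6.95 and 13.9 to 0.0574, 0.141 and 0.156 CPM in CEM and from 1.02, 4.98 and 12.3 to 0.142, 0.127 and 0.0315 CPM in DND41, with a difference of -0.37 ± 1.39 (edgeR adjusted p = 0.96). For both genes untreated library C was the highest and A the lowest of their group in both lines.

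Cholesterol synthesis genes fell too, 16 of 26 tested in CEM, where 0 rose, and 15 in DND41, where 1 rose. Their medians were -0.58 in CEM and -0.51 in DND41, and the interaction test called 2 higher and 1 lower. Over all genes tested it called 2.52% higher and 2.11% lower. SQLE, squalene epoxidase, fell in both lines and further in DND41 (0.70 ± 0.16, edgeR adjusted p = 0.0248). SREBF1, a regulator of lipid synthesis, fell in DND41 (0.87 ± 0.23, edgeR adjusted p = 0.0455), and STARD4, a sterol carrier, fell in CEM (-1.15 ± 0.30, edgeR adjusted p = 0.0421). The SQLE call was lost without any 1 of 6 libraries (edgeR adjusted p up to 0.11, without CEM L-asparaginase B), the SREBF1 call without any 1 of 10 libraries (edgeR adjusted p up to 0.153, without CEM L-asparaginase A) and the STARD4 call without any 1 of 9 libraries (edgeR adjusted p up to 0.116, without DND41 L-asparaginase B). The 3 cholesterol calls became 0 without CEM untreated B, CEM L-asparaginase A, CEM L-asparaginase B or DND41 L-asparaginase C or in the model over all 42 libraries, 1 without CEM untreated A, CEM untreated C or CEM L-asparaginase C or with limma voom, 6 without DND41 untreated A, 7 without both DND41 A libraries or with no filter on low counts or with DESeq2 and 10 with the replicate letter as a block. Of 17 tested heat shock genes 8 fell and 0 rose in CEM, 6 fell and 2 rose in DND41, and 0 passed the interaction test by edgeR, with 1 at an unadjusted p under 0.05. Over all genes tested 4.63% passed that edgeR test in either direction, and 3217 of 17369 had an unadjusted p under 0.05. These shares also stand behind the synthetase and interferon counts, and a count of 0 in lists this small lies near the first of them. The number of heat shock genes that passed was 1 without CEM untreated A, DND41 untreated A, DND41 L-asparaginase A or both DND41 A libraries or with no filter on low counts or with DESeq2 or with the replicate letter as a block, and 0 with limma voom. Of 20 tested transfer RNA synthetases, which charge transfer RNAs and include ATF4 targets, 8 rose and 1 fell in CEM, 11 rose and 3 fell in DND41, and 0 passed the interaction test by edgeR, with 4 at an unadjusted p under 0.05. The number of synthetases that passed was 1 without DND41 untreated C or DND41 L-asparaginase A or with no filter on low counts, 5 without DND41 untreated A and 6 without both DND41 A libraries, and 0 with DESeq2 or limma voom. Of 27 tested interferon-stimulated genes 2 rose and 8 fell in CEM, 2 rose and 10 fell in DND41, and 0 passed the interaction test by edgeR, with 2 at an unadjusted p under 0.05. The number of interferon-stimulated genes that passed was 1 without DND41 untreated A or both DND41 A libraries or with no filter on low counts and 2 with the replicate letter as a block, and 0 with DESeq2 or limma voom. A count of 0 does not show equal responses: in data simulated from the means and library sizes of these libraries the interaction test found 71% of genes changed 2-fold and 97% of genes changed 4-fold. The simulated libraries were independent and only genes of at least 1 CPM in both lines were changed, so the real shares may differ. Among the largest shared rises, COLGALT2, a collagen galactosyltransferase, rose from a mean of 0.282 to 2.26 CPM in CEM and from 0.0399 to 0.674 CPM in DND41, with a difference of -1.05 ± 0.80 (edgeR adjusted p = 0.537). NANOS1, an RNA-binding translational repressor, fell from a mean of 0.88 to 0.14 CPM in CEM and from 14.1 to 1.35 CPM in DND41, with a difference of 0.75 ± 0.71 (edgeR adjusted p = 0.636).

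**Figure D5:**
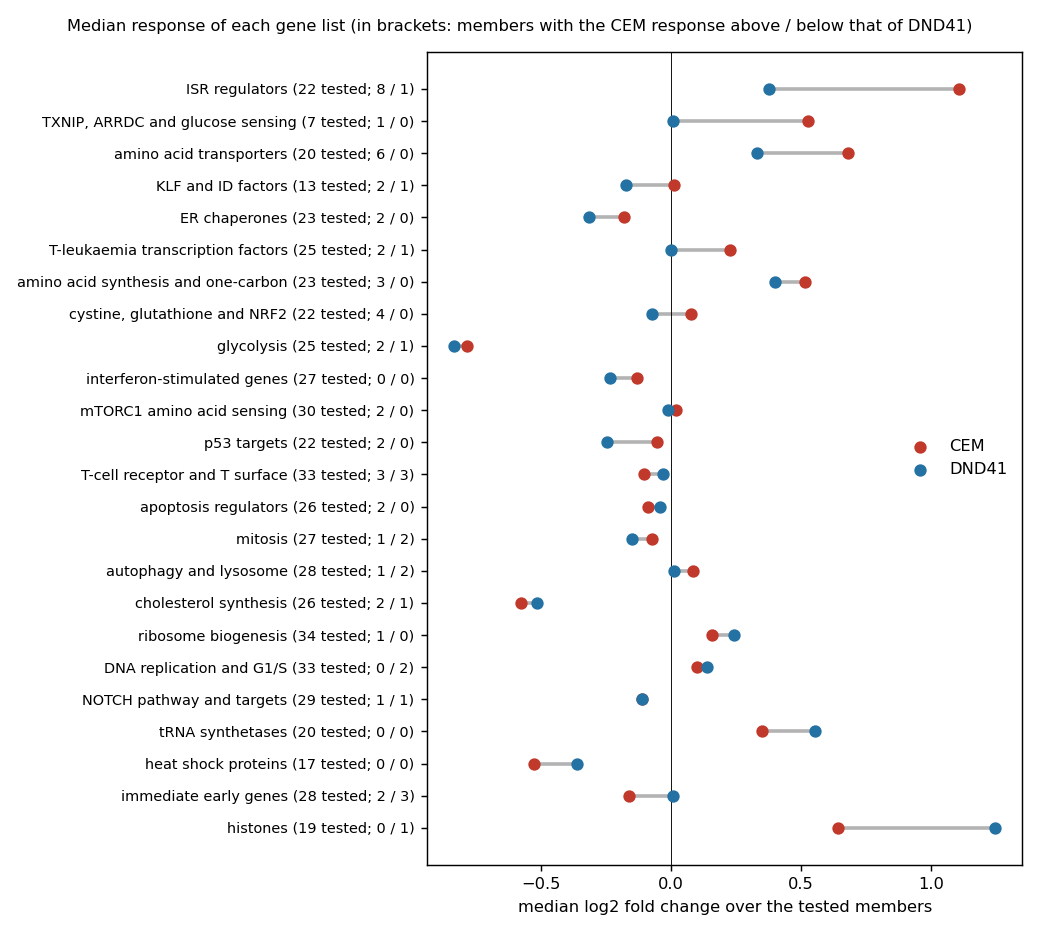
Median log2 response over the tested members of each gene list in CEM (red) and DND41 (blue), joined by a grey line, ordered by the median difference between responses. The brackets give the members tested and those with a higher and a lower response in CEM by the interaction test: the stress response regulators stand at 1.11 in CEM and 0.38 in DND41, and the histones have the highest median in DND41.

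The remaining lists held few calls each. Of 13 tested KLF and ID factors 2 had a higher (ID3 and KLF13) and 1 a lower response in CEM (KLF6), against 2.52% and 2.11% of all genes. These 3 calls became 2 in the model over all 42 libraries, 5 with the replicate letter as a block and 6 without both DND41 A libraries. Of 22 tested genes of cystine, glutathione and NRF2 metabolism 4 had a higher and 0 a lower response in CEM, against 2.52% and 2.11% of all genes. The 4 calls became 1 without CEM L-asparaginase B or CEM L-asparaginase C and 2 without CEM untreated A, CEM untreated B, CEM untreated C, CEM L-asparaginase A or DND41 L-asparaginase C. Besides CHAC1 and SLC7A11 these were GCLC, the catalytic subunit of glutathione synthesis, with 0.60 ± 0.13 (edgeR adjusted p = 0.0192), and TXNRD1, thioredoxin reductase, with 0.63 ± 0.16 (edgeR adjusted p = 0.0363). GCLC fell in DND41 from 65.1, 56.5 and 57.9 to 43.0, 45.7 and 43.7 CPM and stood at 40.2, 39.9 and 39.5 and 44.1, 44.4 and 45.2 CPM in CEM. The GCLC call was lost without any 1 of 6 libraries (edgeR adjusted p up to 0.0962, without CEM L-asparaginase B) and the TXNRD1 call without any 1 of 10 libraries (edgeR adjusted p up to 0.16, without CEM L-asparaginase B). BBC3, the death inducer PUMA, rose in CEM from 1.06, 0.783 and 0.83 to 3.14, 2.89 and 2.76 CPM and overlapped in DND41 at 3.57, 7.27 and 7.12 and 3.60, 6.94 and 6.50 CPM. Its difference of 1.80 ± 0.42 (edgeR adjusted p = 0.0248) was lost without any 1 of 7 libraries (edgeR adjusted p up to 0.0802, without CEM untreated B). BID, another death inducer, fell in both lines and further in DND41, from means of 77.8 to 52.5 CPM in CEM and 75.5 to 30.3 CPM in DND41 (0.75 ± 0.14, edgeR adjusted p = 0.00803). TFEB, the regulator of lysosome genes, rose in DND41 from 4.59, 7.35 and 7.78 to 12.5, 14.3 and 15.2 CPM and overlapped in CEM at 1.76, 2.505 and 3.84 and 2.03, 1.46 and 2.10 CPM, a difference of -1.63 ± 0.36 (edgeR adjusted p = 0.0198), lost without CEM L-asparaginase B (edgeR adjusted p = 0.0544), CEM untreated C (edgeR adjusted p = 0.059) or DND41 L-asparaginase C (edgeR adjusted p = 0.063). The other named genes with a called difference were EDEM1 (0.91 ± 0.22) and HERPUD1 (0.96 ± 0.26) of protein quality control in the endoplasmic reticulum, LAMP1 (0.48 ± 0.13) and UVRAG (-0.68 ± 0.17) of lysosomes and autophagy, the p53 target PLK3 (1.503 ± 0.31), the mTOR inhibitor DEPTOR (1.89 ± 0.49) and the transcription factor KLF13 (1.02 ± 0.24). The EDEM1 call was lost without any 1 of 10 libraries (edgeR adjusted p up to 0.0967, without CEM L-asparaginase B). The HERPUD1 call was lost without any 1 of 11 libraries (edgeR adjusted p up to 0.144, without CEM L-asparaginase B). The LAMP1 call was lost without any 1 of 11 libraries (edgeR adjusted p up to 0.209, without CEM L-asparaginase B). The UVRAG call was lost without any 1 of 8 libraries (edgeR adjusted p up to 0.105, without CEM untreated B). The PLK3 call was lost without CEM L-asparaginase B (edgeR adjusted p = 0.0554). DEPTOR had means of 0.353 CPM in untreated and 0.608 CPM in treated CEM, and 0.662 and 0.305 CPM in DND41. No library exceeded 0.889 CPM, so its value rests on low counts. The DEPTOR call was lost without any 1 of 10 libraries (edgeR adjusted p up to 0.13, without CEM L-asparaginase B). The KLF13 call was lost without any 1 of 8 libraries (edgeR adjusted p up to 0.0897, without CEM L-asparaginase A). UBTF, a factor of ribosomal RNA transcription, rose in CEM from 177, 180.3 and 152 to 264, 263 and 225 CPM and fell in DND41 from 278, 254 and 150.3 to 129.7, 152 and 123 CPM, where the groups overlapped, a difference of 1.32 ± 0.25 (edgeR adjusted p = 0.00811) that passed in all 22 settings.

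Among cell cycle genes 5 differences were called. Of 33 tested replication genes 2 had a lower and 0 a higher response in CEM, against 2.11% and 2.52% of all genes: FEN1, a flap endonuclease, fell in CEM (-0.72 ± 0.14, edgeR adjusted p = 0.0104, lost in the model over all 42 libraries at 0.0504), and GINS3, a helicase subunit, rose in DND41 (-0.52 ± 0.14, edgeR adjusted p = 0.0414). The GINS3 call was lost without any 1 of 8 libraries (edgeR adjusted p up to 0.129, without CEM L-asparaginase C). Of 27 tested mitosis genes 1 had a higher and 2 a lower response in CEM. Calls in either direction made up 4.63% of all genes and 6.37% of the genes expressed in both lines. The replication count lies near these shares, and both counts are small. PRC1, which bundles spindle microtubules, was at 212, 239 and 238 CPM in untreated and 235, 243 and 225 CPM in treated CEM. DND41 held PRC1 at 105, 114 and 112 CPM untreated and 202, 209 and 172 CPM treated. It rose in DND41 and overlapped in CEM, and its difference of -0.79 ± 0.15 (edgeR adjusted p = 0.00743) passed in all 22 settings. CDC20, an activator of the anaphase complex, fell in DND41, with a difference of 0.73 ± 0.15 (edgeR adjusted p = 0.0121), lost without CEM L-asparaginase A (edgeR adjusted p = 0.0576) or CEM L-asparaginase B (edgeR adjusted p = 0.0791). AURKA, a mitotic kinase, rose in DND41, with a difference of -0.54 ± 0.15 (edgeR adjusted p = 0.0491), lost without any 1 of 10 libraries (edgeR adjusted p up to 0.15, without CEM untreated B).

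Some responses could be measured in 1 line only. Of the genes tested, 1398 were below 0.1 CPM in both DND41 groups, and 149 of them rose and 205 fell in CEM. Another 389 were below 0.1 CPM in both CEM groups, and 59 of them rose and 38 fell in DND41. Among all genes tested 12.3% rose and 10.7% fell in CEM, and 16.2% rose and 16% fell in DND41. The rises in both sets thus lay near the shares of all genes. BNIP3, a mitophagy receptor induced by hypoxia, fell in CEM from 107, 137 and 283 to 12.3, 13.6 and 17.5 CPM, while 5 of 6 DND41 libraries were at 0. AK4, a mitochondrial adenylate kinase, fell in CEM from 2.46, 5.64 and 8.47 to 0.383, 0.422 and 0.382 CPM, with at most 0.125 CPM in a DND41 library. HES5, a NOTCH target, rose in DND41 from 0.025, 0 and 0.0643 to 0.26, 0.337 and 0.442 CPM, with 5 of 6 CEM libraries at 0. HRG, a plasma glycoprotein, was at 0 in all untreated CEM libraries and at 0.364, 0.871 and 0.642 CPM in treated CEM. No difference between responses is given for these genes, since the other line had too few counts.

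The model over all 42 libraries, in which all lines share 1 estimate of the spread, left the edgeR adjusted p of the interaction at or above 0.05 for AURKA, BBC3, BID, CD247, CD3G, CDC20, CEBPB, CHAC1, EDEM1, FEN1, FOSB, GATA3, GINS3, HERPUD1, ID3, LAMP1, LYL1, MAML3, NOTCH1, PFKM, PKM, RAG1, SESN2, SLC16A3, SLC1A5, SLC7A5, SPSB1, SQLE, SREBF1, STARD4, TOX and TRIB3. Limma voom ended the calls for APLN, BBC3, HERPUD1, HIST1H4F, LINC00659, LYL1, SLC16A3, SLC6A9, SREBF1 and STARD4. Thinned counts ended those for DEPTOR, FOSB, HERPUD1, LAMP1, LYL1, MAML3, SLC6A9, SREBF1, TRIB3 and TXNRD1. Relative log expression factors ended those for HERPUD1, LAMP1, SREBF1, TRIB3 and TXNRD1, upper quartile factors that for AURKA, no filter on low counts those for AURKA, GCLC, GINS3 and LAMP1, and leaving out both DND41 A libraries that for TRIB3.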

How the data were processed

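RNA-seq libraries of 2 T-cell leukaemia lines, untreated or after L-asparaginase, were analysed, 3 per group. The deposited files hold raw read counts per gene symbol, as the authors made them before deposit and as the whole-number values of the file headers' library columns show. Reads were aligned to hg19 per the submitters' processing notes. For the aligner, counter, annotation and strand the entry is: not given in the sources used here. Columns were matched to samples by line and treatment in their names. The labels call the libraries independent experiments and give no letters, and p-values measure the spread between these libraries only.

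The tables of both lines were joined on gene symbol (50648 genes). In CEM 28 and in DND41 26 symbols had been turned into dates, which stay as they are, and 4 rows of 2 repeated names were dropped (at most 0.00063% of a library). A filter on low counts (filterByExpr by group, minimum 10) left 17369 genes. TMM factors and edgeR 4.0.16 quasi-likelihood tests (R 4.3.3) were used on 1 model with 4 group means, with Benjamini-Hochberg adjustment over these genes and a threshold of 0.05. CPM use TMM-scaled library sizes. The SE of a log2 value is its size divided by the square root of the test's F. Alternatives were DESeq2 1.42.0, limma 3.58.1 voom, other factors and filters, all 42 libraries, thinning to 22675056 counts, leaving out each library, and the replicate letter as a block. The test was tested on simulated data (17074 genes): 71% of 2-fold and 97% of 4-fold changes were found, with 5.08% false calls. Simulated libraries were drawn independently, with no shared effect of the letters. Changes were planted in treated CEM only, in genes of at least 1 CPM in both lines.

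Same-letter libraries deviated together from their group means (lowest correlation 0.21 in CEM and 0.36 in DND41, over genes of at least 3 log2 CPM, where the highest between different letters was 0 in CEM and 0.32 in DND41), so the letters were taken to pair treated and untreated libraries within a line. The reported tests do not use this pairing. It enters only the setting with the replicate letter as a block, which called 1696 genes for the interaction against 804.

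Named genes were 12 stress genes, the 10 largest positive and 10 largest negative differences, and 5 opposite responses in each direction. Shared and one-line responses and called members of the lists were added. The largest differences were taken among called genes expressed in both lines, leaving out clone and LOC names. Their treated and untreated libraries also had to be without overlap in at least 1 line. In all, 803 called genes met this last condition, so the missing overlap of the genes named this way is not a separate finding. The members and lists were chosen with earlier results of these data known. Promoter sequences are RefSeq's (GRCh38.p14), a build used for no coordinate of the counts.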

Additional observations from a re-analysis of the deposited data

Results flagged for a closer look

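For 77 named genes the response to L-asparaginase differed between CEM and DND41 by the interaction test itself (edgeR's quasi-likelihood test, Benjamini-Hochberg adjusted p under 0.05). They were named by a rule that for most of them uses that test, so their number is not a finding. The values in brackets are log2 responses of CEM minus log2 responses of DND41, each from 3 libraries per group.

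The difference was positive for 48 genes, with the values PAX8-AS1 (4.25), STAT4 (3.31), FOSB (3.22), ADARB2 (2.71), GPT2 (2.67), SLC6A9 (2.65), CAMSAP2 (2.59), ROCK1P1 (2.52), APLN (2.41), NR1D1 (2.33), CHAC1 (2.24), SLC7A11 (2.06), KIAA0226L (2.03), ASNS (1.99), ID3 (1.94), ELK3 (1.91), DEPTOR (1.89), BBC3 (1.80), CTBP2 (1.73), SESN2 (1.72), ARRDC4 (1.71), DDIT3 (1.66), LY9 (1.64), SPSB1 (1.55), PLK3 (1.503), LYL1 (1.49), UBTF (1.32), SLC7A5 (1.23), CEBPB (1.23), MTHFD2 (1.12), RAG1 (1.06), SLC1A5 (1.03), KLF13 (1.02), HERPUD1 (0.96), PFKM (0.96), MAML3 (0.96), EDEM1 (0.91), PKM (0.88), SREBF1 (0.87), TOX (0.77), BID (0.75), CDC20 (0.73), SQLE (0.70), CD3G (0.68), TRIB3 (0.66), TXNRD1 (0.63), GCLC (0.60) and LAMP1 (0.48). It was negative for 29 genes, with the values PLAU (-4.29), HIST1H4F (-4.21), DUSP16 (-3.89), HIST1H2BM (-3.73), DMBT1 (-3.54), JUN (-3.52), HIST1H2AJ (-3.23), LINC00659 (-2.99), TSPAN9 (-2.76), CD69 (-2.69), PPP2R5B (-2.38), ALDH1B1 (-2.04), DUSP1 (-1.90), KLF6 (-1.79), SLC16A3 (-1.74), TFEB (-1.63), CTB-26E19.1 (-1.52), TRIM9 (-1.502), HIST1H2BG (-1.44), GATA3 (-1.21), STARD4 (-1.15), NOTCH1 (-1.07), EIF2AK4 (-0.98), CD247 (-0.98), PRC1 (-0.79), FEN1 (-0.72), UVRAG (-0.68), AURKA (-0.54) and GINS3 (-0.52).

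Of the 77 calls, 29 held in all 22 alternative settings and 48 were lost in at least 1 of them. None of the 77 values changed sign. No group held 4 or more libraries, so no library could be tested as an outlier.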

How the results depend on the processing

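The number of genes with a called interaction was 804 and moved by more than 1.5 times under several settings: 1389 with DESeq2, 377 with all 42 libraries in the model, 1696 with the replicate letter as a block and 2191 without both DND41 A libraries, a setting chosen after seeing the data. The CEM response count of 4003 became 2667 with all 42 libraries and 6015 without both DND41 A libraries. Leaving out 1 library at a time gave 272 to 1544 interaction calls, 2511 to 5106 CEM calls and 4000 to 6428 DND41 calls, and the cause was not tested. The other factors, filters, limma voom and thinning kept all 3 counts within 1.5 times. The share of interaction calls that were higher in CEM, 54.5%, was 43.3% after thinning, 44.9% with relative log expression factors, 60.2% with upper quartile factors and 36.5% without CEM untreated A. None of the 77 named calls changed sign, 29 held in all 22 settings, and the replicate block ended none of the 77. PSAT1, nearly absent in DND41, had an interaction of -0.22 that turned to 0.18 with limma voom, and spanned -1.05 to 0.38 when 1 library was left out, positive without DND41 untreated B (0.38) or DND41 L-asparaginase C (0.33). PHGDH turned from 0.25 to -0.033 without both DND41 A libraries. In simulated libraries of this depth and n = 3, drawn independently and without a letter effect, the test found 71% of 2-fold differences. The share found in these data may differ.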
